A study of Mus musculus with 11 samples.

Results

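Integrin subunit genes were examined in kidney T cells of mice with experimental glomerulonephritis. The 10 genes Itgae, Itga1, Itga4, Itga6, Itgal, Itgav, Itgb1, Itgb2, Itgb3 and Itgb7 were taken by symbol from the 46078 genes of the deposited table, and all 10 were among the 16365 genes tested. The rule uses gene symbols alone, and the list was drawn up with earlier results of these data known. Per the labels, wild-type mice (Mus musculus) were immunised with recombinant mouse myeloperoxidase and then given sheep anti-mouse basement membrane globulin at low dose to start the disease. T cells were sorted from their kidneys at 21 days, and cells of 3 mice were pooled for each sort. Every animal carried the disease protocol, and no healthy or untreated kidney was compared. The sorted groups were CD4+CD127-PD-1+ (n = 2), CD4+CD127+PD-1- (n = 3), CD8+CD127-PD-1+ (n = 3) and CD8+CD127+PD-1- (n = 3), where CD127 is the IL-7 receptor alpha chain and PD-1 an inhibitory receptor of activated T cells. The CD4+CD127-PD-1+ group has 2 libraries because its remaining sample did not pass quality control, as the labels state.

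Integrins are adhesion receptors made of 1 alpha and 1 beta chain, and a chain reaches the cell surface only with a partner. On T cells the alpha L chain pairs with beta 2 to form LFA-1, which binds ICAM molecules on endothelium and antigen-presenting cells. The alpha 4 chain pairs with beta 1 (VLA-4, a receptor for VCAM-1 and fibronectin) or with beta 7 (a receptor for MAdCAM-1 of gut vessels), and alpha E pairs with beta 7 to bind E-cadherin on epithelium. The alpha 1 and alpha 6 chains pair with beta 1 to bind collagen and laminin. The alpha v chain pairs with beta 1, beta 3 and other beta chains to bind ligands such as vitronectin and latent TGF-beta.

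Library totals ran from 10572505 to 16057310 counts, and log2 CPM (read counts scaled to library size by edgeR) correlated at 0.955 to 0.975 between libraries of a group. The sort markers were used to check the labels. Il7r, which encodes CD127, averaged 21.4 CPM in CD4+CD127-PD-1+ libraries against 385 CPM in CD4+CD127+PD-1- libraries, and 16.1 CPM in CD8+CD127-PD-1+ against 367 CPM in CD8+CD127+PD-1- libraries. Pdcd1, which encodes PD-1, averaged 19.2 against 1.82 CPM in the same CD4 groups and 22.4 against 2.14 CPM in the CD8 groups. Cd4 averaged 634 and 554 CPM in the CD4 groups and 4.88 and 6.54 CPM in the CD8 groups. Cd8a averaged 0.403 and 1.09 CPM in the CD4 groups and 585 and 575 CPM in the CD8 groups. Cd8b1, the CD8 beta chain, followed the labels only in part: it measured 5.98 and 1.75 CPM in CD4+CD127-PD-1+ libraries against 60.7, 20.7 and 30.1 CPM in CD4+CD127+PD-1- libraries (log2 -3.27, edgeR adjusted p = 0.00249), and averaged 350.2 and 406 CPM in the CD8 groups. The source of the Cd8b1 RNA in CD4+CD127+PD-1- libraries, and its part in the integrin values, was not tested. RNA of other cells moved with the sort: the summed level of 14 macrophage genes (Csf1r, C1qa, Apoe, Adgre1 and others) was 1253 to 2659 CPM in CD4+CD127-PD-1+ libraries against 52.0 to 118 CPM in CD4+CD127+PD-1- libraries. It was 1224 to 2406 CPM in CD8+CD127-PD-1+ and 62.4 to 125 CPM in CD8+CD127+PD-1- libraries. All 14 genes were called higher in CD127-PD-1+ cells of both lineages, none of them was at 0 in any group, and their part in the integrin values was not tested.

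Compared per kilobase of exon, Itgb1 had the highest mean level of the 10 genes in every group, and the LFA-1 chain Itgal had the second highest. Itgb1 averaged 183 ± 5.06 CPM per kb in CD4+CD127-PD-1+ and 86.6 ± 23.3 CPM per kb in CD4+CD127+PD-1- libraries. In the CD8 groups it averaged 157 ± 5.91 CPM per kb in CD127-PD-1+ and 82.4 ± 21.7 CPM per kb in CD127+PD-1- libraries (SD, n as above). The libraries of Itgb1 lay above those of Itgal in both CD127-PD-1+ groups, and the 2 genes overlapped in both CD127+PD-1- groups. Itgal averaged 117 and 84.9 CPM per kb in CD4+CD127-PD-1+ and CD4+CD127+PD-1- libraries. At the low end, the lowest mean was that of Itgae in CD4+CD127-PD-1+ (2.61 CPM per kb) and of Itgb3 in CD8+CD127-PD-1+ (3.16 CPM per kb). Itga1, a collagen receptor chain, was lowest in CD4+CD127+PD-1- (1.70 CPM per kb) and CD8+CD127+PD-1- libraries (2.20 CPM per kb). With the longest coding transcript as the length, Itgal ranked above Itgb1 in CD4+CD127+PD-1- (106.8 against 92.6 CPM per kb) and in CD8+CD127+PD-1- libraries (96.4 against 88.2 CPM per kb).

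**Figure D1:**
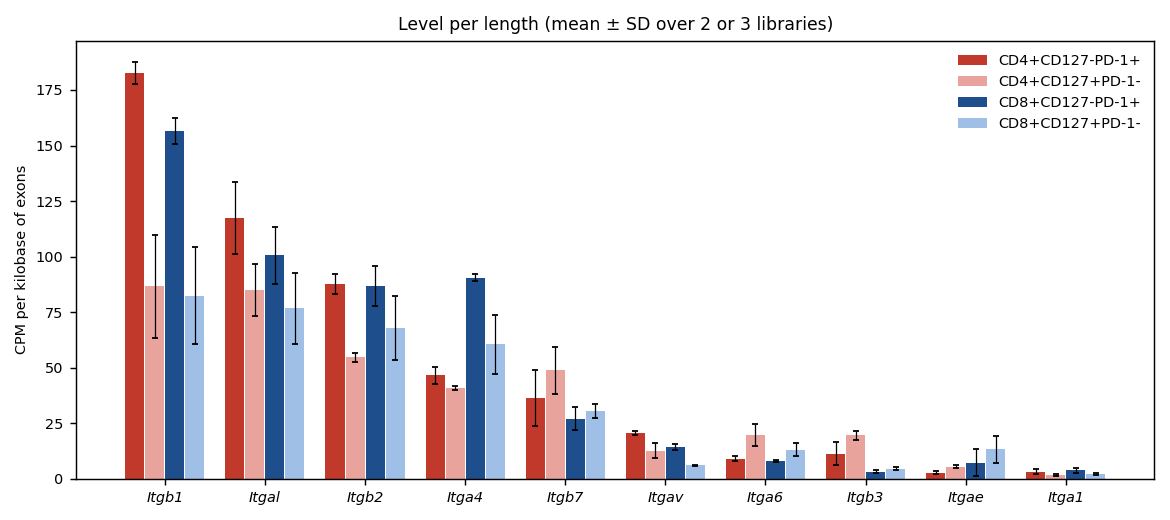
Mean level of each of the 10 genes per group, in CPM per kilobase of exon, with bars from 0 for the mean and error bars for the SD over libraries (n = 2 for CD4+CD127-PD-1+, n = 3 for the others). Itgb1 has the highest mean in each group, from 183 CPM per kb in CD4+CD127-PD-1+ to 82.4 CPM per kb in CD8+CD127+PD-1- libraries.

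Differences between CD127-PD-1+ and CD127+PD-1- cells were then tested within each lineage. In CD4 cells 4 of the 10 integrin genes changed: Itgb1, Itgav and Itgb2 rose and Itga6 fell in CD127-PD-1+ cells. In CD8 cells Itgb1, Itgav and Itga4 rose and Itga6 fell. Over all tested genes 11.7% were called in the CD4 and 15.6% in the CD8 comparison (edgeR quasi-likelihood test, Benjamini-Hochberg adjusted p under 0.05). The called shares by direction were 6.81% higher and 4.87% lower in CD4 cells, and 9.05% higher and 6.56% lower in CD8 cells. The median log2 fold change of the 10 genes was 0.33 in CD4 and 0.37 in CD8 cells, against 0.02 and 0.01 over all tested genes. In bulk libraries such as these, fewer cells of a type and less RNA per cell cannot be told apart.

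**Figure D2:**
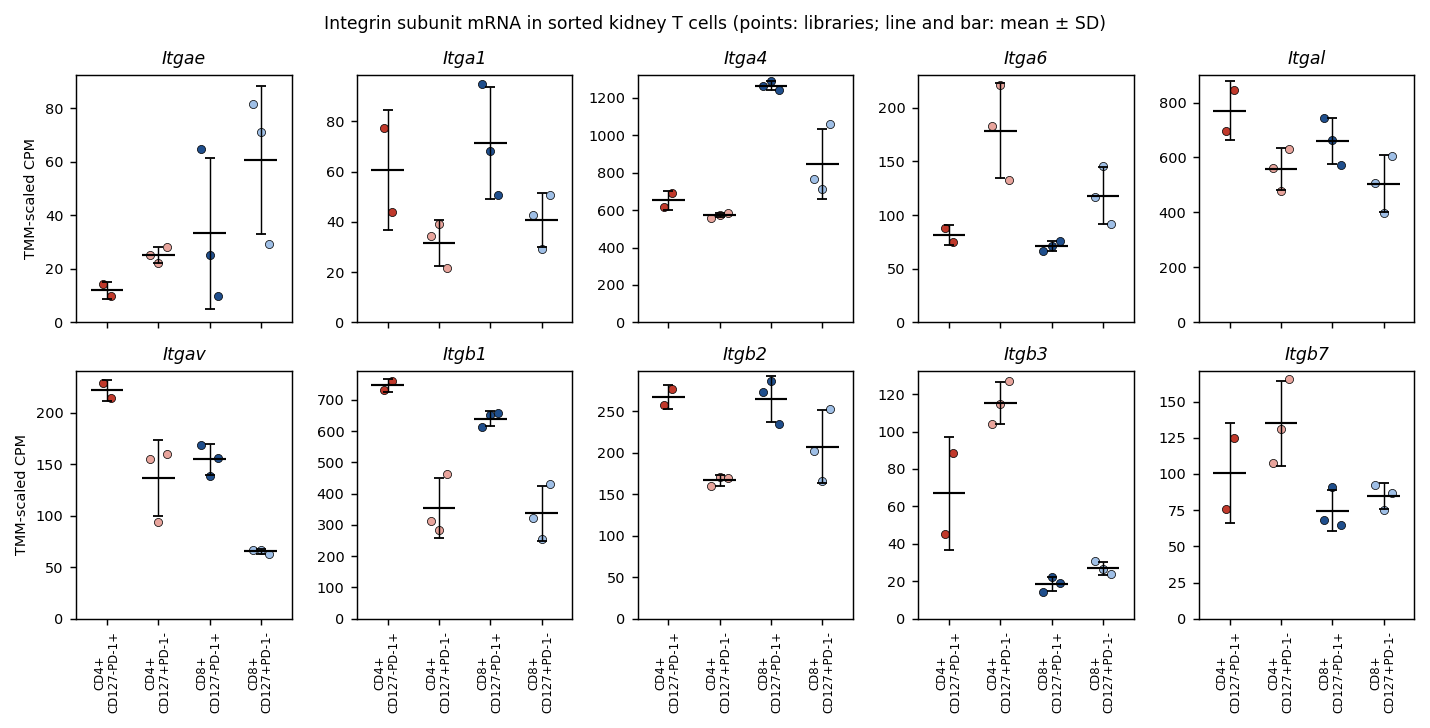
Level of each integrin gene in every library, in CPM on an axis of its own for each gene, with the CD127-PD-1+ group left of the CD127+PD-1- group in each lineage lines at the group means and error bars for the SD. Itgb1 and Itgav lie higher in every CD127-PD-1+ library than in any CD127+PD-1- library of the same lineage, and Itga6 lies lower.

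Itgb1 (ENSMUSG00000025809, chromosome 8, 128685654 to 128733200, plus strand, GRCm38) encodes the beta 1 chain shared by the VLA integrins. CD4+CD127-PD-1+ libraries held 731 and 760.3 CPM of it, against 314, 285 and 462 CPM in CD4+CD127+PD-1- libraries. In CD8 cells it measured 612, 650.5 and 656 CPM in CD127-PD-1+ and 323, 255 and 431 CPM in CD127+PD-1- libraries. Every CD127-PD-1+ library of either lineage exceeded every CD127+PD-1- library. The fold change was 2.11 in CD4 cells (log2 1.08, 95% interval 0.61 to 1.55, edgeR adjusted p = 0.00896). In CD8 cells it was 1.90 (log2 0.93, 95% interval 0.49 to 1.36, edgeR adjusted p = 0.00866). The gene was called in each of 11 alternative analyses in CD4 cells and each of 12 in CD8 cells. In the CD127-PD-1+ gate, the CD4 library with 731 CPM of Itgb1 had 2659 CPM of macrophage genes and the one with 760.3 CPM had 1253 CPM. The CD8 libraries with 612, 650.5 and 656 CPM of Itgb1 had 1224, 2405 and 2406 CPM of macrophage genes. The part of macrophage RNA in the Itgb1 difference was not tested.

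Itgav (ENSMUSG00000027087, chromosome 2, 83724397 to 83806916, plus strand) encodes the alpha v chain. It measured 229 and 214 CPM in CD4+CD127-PD-1+ libraries and 155, 94.1 and 160.0 CPM in CD4+CD127+PD-1- libraries. In CD8 cells the levels were 169, 138 and 156 CPM in CD127-PD-1+ and 66.3, 66.9 and 62.9 CPM in CD127+PD-1- libraries. The groups did not overlap in either lineage, and the spread in CD8+CD127+PD-1- cells was narrow (65.4 ± 2.15 CPM, SD, n = 3). Itgav rose 1.63-fold in CD4 cells (log2 0.70, SE 0.19, edgeR adjusted p = 0.0315) and 2.36-fold in CD8 cells (log2 1.24, SE 0.17, edgeR adjusted p = 0.000744). The call in CD8 cells was made in each of 12 alternatives. That in CD4 cells was lost without CD4+CD127-PD-1+ replicate 1 or replicate 2, each of which leaves 1 library in that group. It was also lost with only the compared groups filtered, scaled and fitted (edgeR adjusted p = 0.0843). The CD4 log2 fold change stayed between 0.49 and 0.84 when 1 library was left out. Exons of Itgav overlap the gene Gm13684 on the other strand, which had 50 to 253 counts per library.

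Promoter sequence is shown for the 3 called genes with an entry in the RefSeq promoter table (GRCm38.p6), since Itgb1, Itgav and Itga4 were higher in CD127-PD-1+ cells of at least 1 lineage. Each run is the 250 bases before the annotated start, read 5′ to 3′ on the plus strand, at chr8:128685404-128685653 (Itgb1), chr2:83724147-83724396 (Itgav) and chr2:79255176-79255425 (Itga4). Capitals mark matches to any of 5 motifs searched on both strands.
Itgb1: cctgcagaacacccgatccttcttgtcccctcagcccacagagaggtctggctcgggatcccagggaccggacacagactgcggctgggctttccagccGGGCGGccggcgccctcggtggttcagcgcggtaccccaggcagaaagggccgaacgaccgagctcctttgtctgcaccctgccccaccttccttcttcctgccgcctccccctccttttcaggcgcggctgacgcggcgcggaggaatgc
Itgav: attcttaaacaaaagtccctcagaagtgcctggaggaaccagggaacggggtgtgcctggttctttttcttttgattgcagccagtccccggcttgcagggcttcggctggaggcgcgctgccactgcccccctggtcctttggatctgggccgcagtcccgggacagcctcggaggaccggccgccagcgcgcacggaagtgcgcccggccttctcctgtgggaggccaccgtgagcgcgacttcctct
Itga4: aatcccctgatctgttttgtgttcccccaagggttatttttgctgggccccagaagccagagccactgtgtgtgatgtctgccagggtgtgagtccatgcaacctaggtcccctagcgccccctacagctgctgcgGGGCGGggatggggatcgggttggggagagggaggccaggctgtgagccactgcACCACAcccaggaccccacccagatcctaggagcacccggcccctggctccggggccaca
The motifs were the GC box (GGGCGG), an ETS motif (CCGGAAG), 2 RUNX forms (TGTGGT and TGCGGT) and AP-1 (TGANTCA). The GC box matched once in Itgb1 and once in Itga4, and RUNX (TGTGGT) once in Itga4, on the minus strand as ACCACA. Among 32851 RefSeq promoters of this length, 32.7% held the GC box, 6.91% the ETS motif, 14% TGTGGT, 5.1% TGCGGT and 6.75% AP-1. None of the 5 matched in Itgav, and no marked match overlapped another. The GC content was 68% in Itgb1, 64.4% in Itgav and 64% in Itga4, against a median of 52.4% over these promoters. Of the 10 genes, 5 had an entry, the others being Itga1 and Itgb7.

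Itga4 (ENSMUSG00000027009, chromosome 2, 79255426 to 79333123, plus strand) encodes the alpha 4 chain of VLA-4. The CD8 levels were 1265, 1288 and 1242 CPM in CD127-PD-1+ and 766, 715 and 1059.6 CPM in CD127+PD-1- libraries. The CD8+CD127-PD-1+ libraries were the 3 highest of all 11. Itga4 rose 1.49-fold there (log2 0.58, SE 0.13, edgeR adjusted p = 0.0121), a call lost without CD8+CD127+PD-1- replicate 1 (0.0504) or replicate 2 (0.0512). In CD4 cells the levels were 614.0 and 689 CPM in CD127-PD-1+ and 560.2, 576 and 582 CPM in CD127+PD-1- libraries. These did not overlap either, but the log2 fold change of 0.19 did not pass (95% interval -0.14 to 0.51, edgeR adjusted p = 0.475). The gene Cerkl, on the other strand, overlaps exons of Itga4 and had 30 to 82 counts per library.

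Itga6 (ENSMUSG00000027111, chromosome 2, 71745616 to 71858416, plus strand) encodes the laminin-binding alpha 6 chain and was the called gene that fell. It measured 88.2 and 75.1 CPM in CD4+CD127-PD-1+ libraries, against 183, 221 and 133 CPM in CD4+CD127+PD-1- libraries. Its levels in CD8 cells were 66.6, 71.6 and 76.1 CPM in CD127-PD-1+ and 117, 146 and 92.0 CPM in CD127+PD-1- libraries. The CD127-PD-1+ libraries lay below the CD127+PD-1- libraries in both lineages. The level was 2.19-fold lower in CD4 cells (log2 -1.13, SE 0.22, edgeR adjusted p = 0.00823) and 1.65-fold lower in CD8 cells (log2 -0.73, SE 0.19, edgeR adjusted p = 0.0255). The call in CD4 cells was lost without CD4+CD127-PD-1+ replicate 2 (0.0619). In CD8 cells it was lost without any single CD127-PD-1+ library and without CD127+PD-1- replicate 1 or 2, with edgeR adjusted p between 0.0577 and 0.107. Summed RNA of other cell types moved in the same direction. The sum of 9 endothelial genes was 97.6 to 105 CPM in CD4+CD127-PD-1+ libraries against 165 to 190 CPM in CD4+CD127+PD-1- libraries, and 61.2 to 79.7 CPM against 119 to 139 CPM in the CD8 groups. Of the 5 endothelial genes tested, 2 fell in CD4 and 3 in CD8 cells. Cdh5, the VE-cadherin of endothelium, averaged 0.869 against 8.32 CPM in the CD4 groups (log2 -3.25) and 0.838 against 8.79 CPM in the CD8 groups (log2 -3.38). Pecam1, which T cells also express and which made up the largest part of the sum, fell in both lineages (log2 -1.06 in each). Ehd3 fell in CD8 cells (log2 -0.48) but not in CD4 cells (log2 -0.02). Kdr was lower without a call (log2 -1.61 in CD4 and -1.46 in CD8 cells). Flt1 did not fall, with log2 0.06 in CD4 cells and 1.38 in CD8 cells (edgeR adjusted p = 0.159). The sum of 8 plasmacytoid dendritic cell genes was 52.3 to 272 CPM against 402 to 813 CPM in the CD4 groups and 77.2 to 105 CPM against 316 to 591 CPM in the CD8 groups, with 5 and 4 of the 8 genes called lower. No gene of either list was at 0 in every library of a group, and the part of these cells in the Itga6 difference was not tested.

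The LFA-1 chains were higher in CD127-PD-1+ cells by smaller steps than Itgb1, and only 1 of the 4 differences was called. Itgb2 (ENSMUSG00000000290, chromosome 10, 77530252 to 77565708, plus strand), the beta 2 chain of leukocytes, measured 258 and 277 CPM in CD4+CD127-PD-1+ libraries against 159.6, 171 and 169.9 CPM in CD4+CD127+PD-1- libraries. It rose 1.60-fold (log2 0.68, SE 0.15, edgeR adjusted p = 0.0158), a call lost without CD4+CD127-PD-1+ replicate 1 (0.0531) or 2 (0.0844) and without CD4+CD127+PD-1- replicate 1 (0.0543). In CD8 cells the groups overlapped, at 273, 287 and 234 CPM in CD127-PD-1+ and 203, 166 and 253 CPM in CD127+PD-1- libraries (log2 0.35, edgeR adjusted p = 0.115), and the difference passed only without CD8+CD127+PD-1- replicate 3 (0.0183). Itgal (ENSMUSG00000030830, chromosome 7, 127296260 to 127335138, plus strand), the alpha L chain, measured 695 and 847 CPM in CD4+CD127-PD-1+ libraries against 561, 479 and 633 CPM in CD4+CD127+PD-1- libraries. These groups did not overlap, and the difference was not called (log2 0.47, 95% interval 0.07 to 0.86, edgeR adjusted p = 0.126). In CD8 cells Itgal measured 744, 663 and 574 CPM in CD127-PD-1+ and 505, 399 and 607 CPM in CD127+PD-1- libraries, which overlapped (log2 0.39, edgeR adjusted p = 0.134). It passed in CD8 cells without CD127+PD-1- replicate 3 (0.0461). Beta 2 chains are also abundant in macrophages, whose summed RNA was higher in the CD127-PD-1+ gate as given above. In that gate the CD4 libraries with 258 and 277 CPM of Itgb2 had 2659 and 1253 CPM of macrophage genes. The CD8 libraries with 273, 287 and 234 CPM of Itgb2 had 1224, 2405 and 2406 CPM. The part of macrophage RNA in the Itgb2 values was not tested.

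Itga1 (ENSMUSG00000042284, chromosome 13, 114953096 to 115101964, minus strand), a collagen receptor chain of tissue-resident memory cells, was not called in either lineage, although the groups did not overlap. It measured 77.5 and 43.9 CPM in CD4+CD127-PD-1+ libraries against 34.4, 39.2 and 21.5 CPM in CD4+CD127+PD-1- libraries (log2 0.94, SE 0.33, edgeR adjusted p = 0.0970). In CD8 cells the levels were 95.02, 68.1 and 50.9 CPM in CD127-PD-1+ and 42.6, 29.4 and 50.6 CPM in CD127+PD-1- libraries (log2 0.80, SE 0.30, edgeR adjusted p = 0.0956). The nearest CD8 libraries of the 2 groups, 50.9 and 50.6 CPM, were almost equal. DESeq2 and the analysis without a filter called Itga1 higher in both lineages. The gene Gm49395 overlaps exons of Itga1 on the same strand, so some reads could belong to either.

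Itgae (ENSMUSG00000005947, chromosome 11, 73090583 to 73147446, plus strand) encodes CD103, the alpha E chain that marks many tissue-resident CD8 cells, and its libraries were most spread in the CD8 groups. It measured 14.2 and 9.73 CPM in CD4+CD127-PD-1+ libraries against 25.3, 22.1 and 28.1 CPM in CD4+CD127+PD-1- libraries (log2 -1.07, SE 0.63, edgeR adjusted p = 0.320). CD8 cells had 64.7, 25.1 and 9.90 CPM in CD127-PD-1+ and 81.5, 71.2 and 29.1 CPM in CD127+PD-1- libraries (log2 -0.87, SE 0.53, edgeR adjusted p = 0.310). The CD4 groups did not overlap, the CD8 groups did, and the 3 CD8+CD127-PD-1+ libraries were far apart. The SD was 28.3 CPM around a mean of 33.2 CPM in CD8+CD127-PD-1+ and 27.8 around 60.6 CPM in CD8+CD127+PD-1- libraries, against 3.15 around 12.0 CPM in CD4+CD127-PD-1+ and 2.99 around 25.2 CPM in CD4+CD127+PD-1- libraries. Pooled over the 4 groups the SD of log2 CPM was 0.86 for Itgae, at the 99.6th percentile of the 1000 genes nearest in level, while the other 9 genes lay between 0.17 (Itga4) and 0.46 (Itga1). Without CD8+CD127-PD-1+ replicate 1 the CD8 difference was called (log2 -1.79, edgeR adjusted p = 0.0273). The CD4 difference was called when the CD4 groups alone were filtered, scaled and fitted (edgeR adjusted p = 0.0218).

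Itgb7 (ENSMUSG00000001281, chromosome 15, 102215995 to 102231944, minus strand) encodes the beta 7 chain that pairs with alpha 4 and alpha E. It measured 76.1 and 125 CPM in CD4+CD127-PD-1+ libraries against 108, 131 and 166 CPM in CD4+CD127+PD-1- libraries (log2 -0.43, edgeR adjusted p = 0.285). In the CD8 groups the levels were 68.1, 91.0 and 64.9 CPM in CD127-PD-1+ and 92.2, 74.8 and 86.9 CPM in CD127+PD-1- libraries (log2 -0.18, edgeR adjusted p = 0.618). The groups overlapped in both lineages. Itgb3 (ENSMUSG00000020689, chromosome 11, 104608000 to 104670476, plus strand) encodes the beta 3 chain, a partner of alpha v and, on platelets, of alpha IIb. It measured 45.5 and 88.4 CPM in CD4+CD127-PD-1+ libraries against 104, 115 and 126.8 CPM in CD4+CD127+PD-1- libraries (log2 -0.78, SE 0.25, edgeR adjusted p = 0.0705). CD8 levels were 14.5, 22.2 and 19.3 CPM in CD127-PD-1+ and 30.6, 26.3 and 23.8 CPM in CD127+PD-1- libraries (log2 -0.53, SE 0.23, edgeR adjusted p = 0.148). Neither pair of groups overlapped, and neither difference was called. In CD4 cells Itgb3 passed under 4 of 11 alternatives, among them without CD4+CD127-PD-1+ replicate 2 (0.0101) and with DESeq2 (0.0274).

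**Figure D3:**
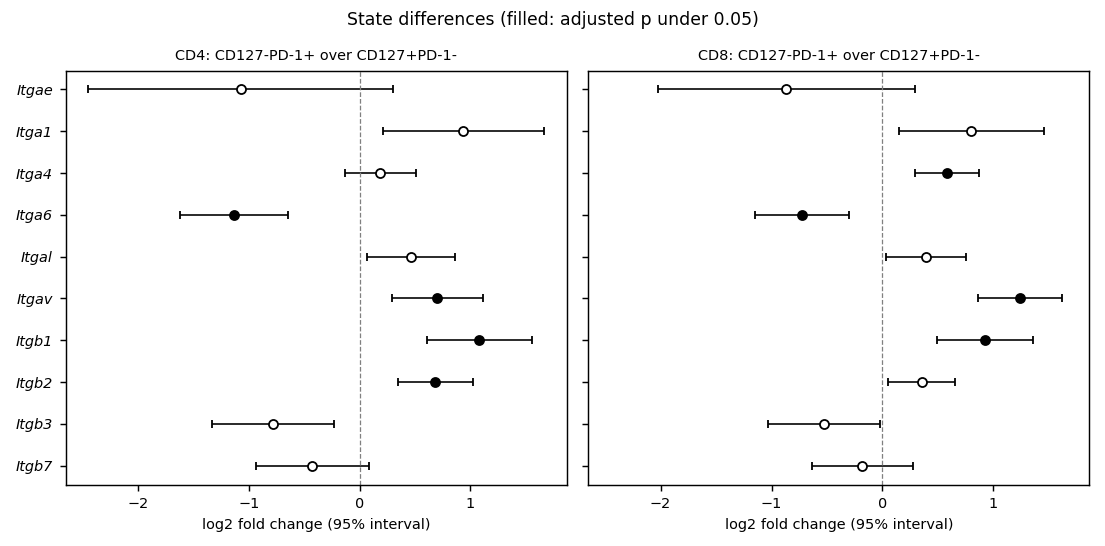
Log2 fold change of CD127-PD-1+ over CD127+PD-1- cells for each integrin gene, in CD4 cells and in CD8 cells, with bars for the 95% interval and filled points for an adjusted p under 0.05. Itgb1 and Itgav are filled above 0 and Itga6 below 0 in both lineages, and Itgae has the widest interval.

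The libraries of the compared groups did not overlap for 9 of the 10 integrin genes in CD4 cells, against 40.7% of all tested genes, and for 6 of 10 in CD8 cells, against 34.4%. The sign of the fold change was the same in CD4 and CD8 cells for 10 of the 10 genes, as it was for 73.8% of all tested genes. Itga6, Itgav and Itgb1 were called in both lineages, as were 7.82% of all tested genes. The difference between the CD4 and CD8 fold changes was called for 0 of the 10 genes by edgeR, 0 at an unadjusted p under 0.05 and 0 by DESeq2. Over all genes edgeR called 1 (0.00611%), Nt5e, which encodes the ectonucleotidase CD73 and is named because it was the single call. Among the integrin genes the smallest p values were those of Itgav (log2 -0.54, 95% interval -1.09 to 0.02, edgeR adjusted p = 0.893) and Itga4 (log2 -0.39, 95% interval -0.83 to 0.04, edgeR adjusted p = 0.909). An interval as wide as that of Itgav does not show that the lineages changed alike.

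The balance between the 2 beta partners of alpha 4 was taken as the log2 ratio of Itgb1 to Itgb7 within each library, with 0.5 CPM added to each gene. It was 3.26 and 2.60 in CD4+CD127-PD-1+ and 1.53, 1.12 and 1.47 in CD4+CD127+PD-1- libraries. In CD8 cells it was 3.16, 2.83 and 3.33 in CD127-PD-1+ and 1.80, 1.76 and 2.30 in CD127+PD-1- libraries. Each CD127-PD-1+ library exceeded each CD127+PD-1- library, by a mean of 1.55 (2.94-fold) in CD4 and 1.15 (2.22-fold) in CD8 cells. The exact two-sided permutation test gave p = 0.1 in each lineage, the smallest p these numbers of libraries allow (10 and 20 arrangements), so a p under 0.05 could not be reached. Of the single genes, Itgb1 was called in both lineages and Itgb7 in neither. Both beta chains also pair with other alpha chains, as given above, so this mRNA ratio does not measure the pairing of alpha 4. The part of macrophage RNA in the ratio was not tested.

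**Figure D4:**
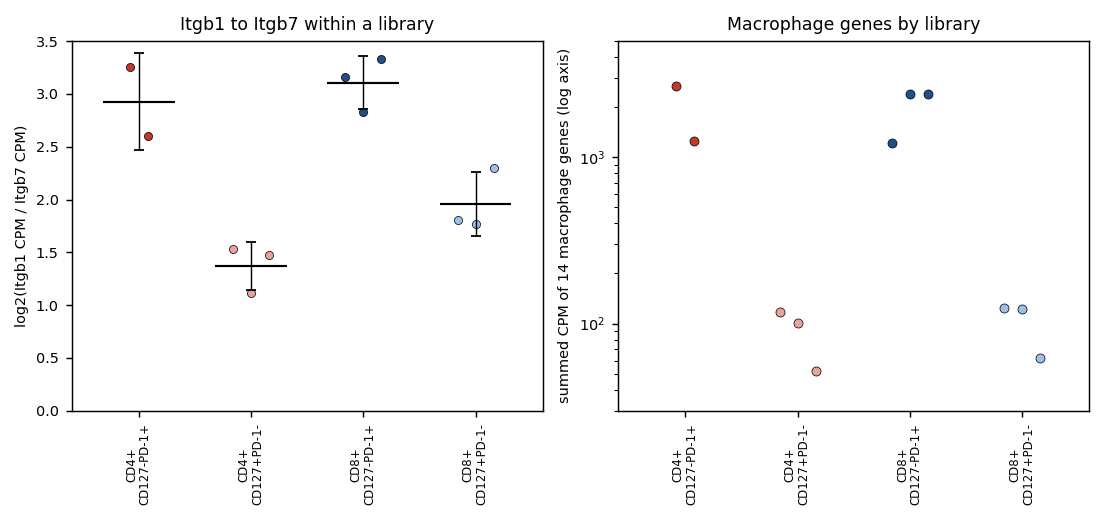
Left, log2 ratio of Itgb1 to Itgb7 in every library, CD127-PD-1+ left of CD127+PD-1- in each lineage, with lines at the means and error bars for the SD. Right, summed CPM of 14 macrophage genes in every library on a log axis, where the CD127-PD-1+ libraries lie at 1224 to 2659 CPM and the CD127+PD-1- libraries at 52.0 to 125 CPM.

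Differences between CD4 and CD8 cells were tested within each sort gate. Itgb3 was higher and Itga4 lower in CD4 than in CD8 cells in both gates, and Itgav was higher in CD4 cells among CD127+PD-1- cells. These were 2 of 10 genes in CD127-PD-1+ cells, against 2.44% of all tested genes (1.6% higher, 0.843% lower), and 3 of 10 in CD127+PD-1- cells, against 4.42% (2.76% higher, 1.66% lower). Itga4 and Itgb3 were called in both gates, as were 1.57% of all tested genes. The sign was the same in both gates for 9 of 10 genes, against 64.3% of all tested genes. The median log2 difference of the 10 genes was 0.21 in CD127-PD-1+ and 0.11 in CD127+PD-1- cells, against -0.02 and -0.01 over all tested genes.

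Itgb3 spanned the widest range of the 10 genes, 6.18-fold between the highest and lowest group mean. Its group order was CD4+CD127+PD-1- (115 ± 11.3 CPM), CD4+CD127-PD-1+ (67.0 ± 30.4 CPM), CD8+CD127+PD-1- (26.9 ± 3.41 CPM) and CD8+CD127-PD-1+ (18.6 ± 3.90 CPM), and no neighbours overlapped (SD, n as above). The lowest CD4 library, at 45.5 CPM, exceeded the highest CD8 library, at 30.6 CPM. The CD4 level was 3.59-fold the CD8 level in CD127-PD-1+ cells (log2 1.85, SE 0.25, edgeR adjusted p = 0.00243) and 4.28-fold in CD127+PD-1- cells (log2 2.10, SE 0.23, edgeR adjusted p = 0.000417). All 11 and 12 alternatives called it, with log2 values of 1.27 to 2.25 and 2.00 to 2.20. Platelets also carry the beta 3 chain, and 11 platelet genes (5 of them tested, none called between the lineages) summed to 12.3 to 16.003 CPM in CD4+CD127-PD-1+ against 6.35 to 19.5 CPM in CD8+CD127-PD-1+ libraries. In the CD127+PD-1- gate they summed to 3.26 to 4.14 CPM in CD4 and 3.30 to 5.65 CPM in CD8 libraries. Among the platelet genes, Gp1bb was at 0 in every library of all groups but CD8+CD127+PD-1-, Gp9 and Treml1 were at 0 in every CD4+CD127-PD-1+ library, and Gp6 in every CD8+CD127+PD-1- library. The part of platelet RNA in the Itgb3 values was not tested.

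Itga4 ran in the other direction, with the order CD8+CD127-PD-1+ (1265 ± 23.2 CPM), CD8+CD127+PD-1- (847 ± 186 CPM), CD4+CD127-PD-1+ (651 ± 52.9 CPM) and CD4+CD127+PD-1- (573 ± 11.5 CPM), again with no overlap between neighbours. In CD127-PD-1+ cells the CD4 level was 1.94-fold lower than the CD8 level (log2 -0.96, SE 0.15, edgeR adjusted p = 0.00622), and the call was lost without CD4+CD127-PD-1+ replicate 1 (0.0580). In CD127+PD-1- cells it was 1.48-fold lower (log2 -0.56, SE 0.13, edgeR adjusted p = 0.0329), and 5 of 12 alternatives lost the call. Those were the compared groups filtered, scaled and fitted alone (0.0612) and leaving out CD4+CD127+PD-1- replicate 1, 2 or 3 or CD8+CD127+PD-1- replicate 3 (0.0618 to 0.110). Itgav averaged 136 ± 36.7 CPM in CD4+CD127+PD-1- libraries, against 65.4 ± 2.15 CPM in CD8+CD127+PD-1- libraries, 2.08-fold higher in CD4 cells (log2 1.06, SE 0.17, edgeR adjusted p = 0.00422), and all 12 alternatives called it. In CD127-PD-1+ cells it averaged 222 ± 10.3 CPM in CD4 and 154 ± 15.2 CPM in CD8 libraries, which did not overlap (log2 0.52, edgeR adjusted p = 0.234).

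**Figure D5:**
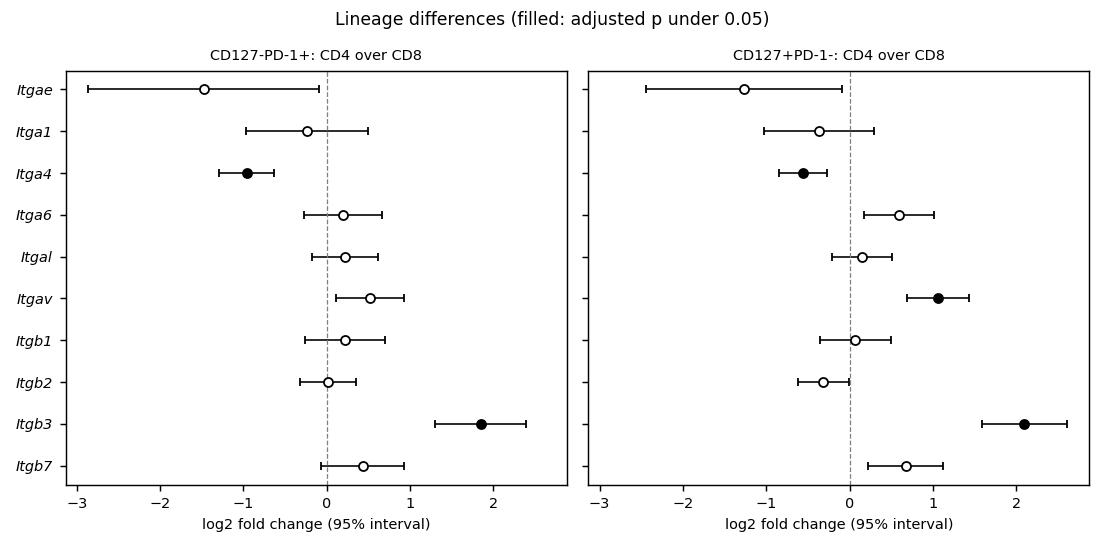
Log2 fold change of CD4 over CD8 cells for each integrin gene, in CD127-PD-1+ cells (left) and CD127+PD-1- cells (right), with bars for the 95% interval and filled points for an adjusted p under 0.05. Itgb3 is filled above 0 and Itga4 below 0 in both panels, and Itgav is filled above 0 in the right panel.

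The other 7 genes were not called between the lineages. The libraries did not overlap for 4 of 10 genes in CD127-PD-1+ cells, against 27.8% of all tested genes, and for 5 of 10 in CD127+PD-1- cells, against 22.8%. Itgae averaged 12.0 CPM in CD4 and 33.2 CPM in CD8 libraries of the CD127-PD-1+ gate (log2 -1.47, edgeR adjusted p = 0.339) and 25.2 against 60.6 CPM in the CD127+PD-1- gate (log2 -1.27, edgeR adjusted p = 0.241). Its CD8 libraries of the CD127-PD-1+ gate ran from 9.90 to 64.7 CPM and so overlapped the CD4 libraries, at 14.2 and 9.73 CPM. Itgb7 averaged 135 ± 29.2 CPM in CD4 and 84.6 ± 8.93 CPM in CD8 libraries of the CD127+PD-1- gate, with no overlap (log2 0.67, edgeR adjusted p = 0.103), and passed under 3 of 12 alternatives. Itga6 averaged 179 ± 44.4 CPM in CD4 and 118 ± 27.0 CPM in CD8 libraries of that gate, which overlapped (log2 0.60, edgeR adjusted p = 0.117), and passed under 2 of 12 alternatives. Itga1 and Itgal overlapped between the lineages in both gates, with log2 differences of -0.23 and 0.22 in CD127-PD-1+ and of -0.37 and 0.15 in CD127+PD-1- cells. Itgb1 and Itgb2 were not called in either gate, with log2 differences of 0.22 (95% interval -0.25 to 0.70) and 0.01 (-0.33 to 0.36) in CD127-PD-1+ cells, where the Itgb1 libraries did not overlap (731 and 760.3 CPM in CD4 against 612 to 656 CPM in CD8 libraries). In CD127+PD-1- cells these were 0.07 (-0.36 to 0.50) and -0.32 (-0.62 to -0.01), and the interval of Itgb2 does not include 0 although its edgeR adjusted p was 0.266.

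Other genes of the integrin system were read from listed groups. Of 15 tested further integrin subunits, 5 rose and 2 fell in CD4+CD127-PD-1+ cells, and 5 rose and 0 fell in CD8+CD127-PD-1+ cells. Over all tested genes 6.81% rose and 4.87% fell in CD4 cells, and 9.05% rose and 6.56% fell in CD8 cells. Itgam (CD11b, a partner of beta 2 on myeloid cells) averaged 103 ± 23.8 CPM in CD4+CD127-PD-1+ libraries against 15.5 ± 6.13 CPM in CD4+CD127+PD-1- libraries (log2 2.74, edgeR adjusted p = 0.000679). In CD8 cells it averaged 162 ± 59.9 against 25.7 ± 3.31 CPM (log2 2.65, edgeR adjusted p = 0.000334). In the CD127-PD-1+ gate it measured 120.0 and 86.4 CPM in CD4 libraries with 2659 and 1253 CPM of macrophage genes, and 93.1, 199.7 and 194 CPM in CD8 libraries with 1224, 2405 and 2406 CPM. The part of macrophage RNA in the Itgam values was not tested. Itgb5, an alpha v partner, averaged 14.2 against 0.806 CPM in CD4 cells (log2 4.12) and 14.5 against 0.892 CPM in CD8 cells (log2 4.01). Itga9, a beta 1 partner, averaged 52.6 against 0.482 CPM (log2 6.76) and 47.3 against 0.779 CPM (log2 5.95). In the CD127-PD-1+ libraries, in the order given for Itgam, Itgb5 measured 14.5 and 13.8 CPM (CD4) and 6.28, 19.3 and 17.9 CPM (CD8). Itga9 was more spread in CD4 libraries, at 77.2 and 28.1 CPM, and measured 33.5, 33.5 and 74.9 CPM in CD8 libraries, in the same order. The part of macrophage RNA in the Itgb5 and Itga9 values was not tested. Itga2b (log2 -2.89) and Itgad (log2 -1.95) fell in CD4+CD127-PD-1+ cells, with group means of 0.165 against 1.28 CPM and 1.03 against 4.01 CPM. Between lineages Itgb8, a TGF-beta activating partner of alpha v, averaged 8.31 CPM in CD4 and 0.908 CPM in CD8 libraries of the CD127-PD-1+ gate (log2 3.18, edgeR adjusted p = 0.0343). Itgax (CD11c) averaged 24.9 CPM in CD4 and 96.3 CPM in CD8 libraries of the CD127+PD-1- gate (log2 -1.95, edgeR adjusted p = 0.0139). Both genes differed in the same direction in the other gate, where DESeq2 called them and edgeR did not. Itgb8 averaged 3.82 CPM in CD4 and 0.820 CPM in CD8 libraries of the CD127+PD-1- gate. For Itgax the CD127-PD-1+ gate had 40.5 CPM in CD4 and 141 CPM in CD8 libraries. Itgad was lower in CD4 cells in the CD127-PD-1+ gate (log2 -2.70), and Itga3, a laminin receptor chain, higher in the CD127+PD-1- gate (log2 2.46).

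Of 14 tested ligand genes, 1 rose and 1 fell in CD4+CD127-PD-1+ cells and 3 rose and 2 fell in CD8+CD127-PD-1+ cells. The 2 calls in CD4 cells are near the 11.7% of all tested genes, and the share of all tested genes in CD8 cells was 15.6%. Vcam1, the VLA-4 ligand, measured 50.2 and 44.3 CPM in CD4+CD127-PD-1+ libraries against 0.995, 1.08 and 0.372 CPM in CD4+CD127+PD-1- libraries (log2 5.82, edgeR adjusted p = 0.00175). Levels in CD8 libraries were 15.4, 20.8 and 19.9 CPM in CD127-PD-1+ and 1.89, 5.57 and 0 CPM in CD127+PD-1- libraries (log2 2.92, edgeR adjusted p = 0.0160). DESeq2 did not call Vcam1 in CD8 cells. Macrophages can also express Vcam1. The CD4+CD127-PD-1+ libraries with 50.2 and 44.3 CPM of Vcam1 had 2659 and 1253 CPM of macrophage genes. The CD8+CD127-PD-1+ libraries with 15.4, 20.8 and 19.9 CPM of Vcam1 had 1224, 2405 and 2406 CPM. The part of macrophage RNA in the Vcam1 values was not tested. Cdh1 (E-cadherin, bound by alpha E beta 7) fell in CD4+CD127-PD-1+ cells, at 6.49 ± 3.85 against 27.9 ± 10.8 CPM (log2 -2.11, edgeR adjusted p = 0.0286). In CD8+CD127-PD-1+ cells Thbs1 (log2 3.69) and Fn1, which encodes fibronectin (log2 3.41), rose, and Lamb1 (log2 -2.24) and Icam2 (log2 -1.05) fell. DESeq2 also called Thbs1 in CD4 cells, where edgeR did not (log2 2.10, edgeR adjusted p = 0.0559). Fn1 measured 19.8, 107.8 and 80.2 CPM in CD8+CD127-PD-1+ and 6.20, 9.38 and 4.02 CPM in CD8+CD127+PD-1- libraries, so its groups did not overlap. Thbs1 measured 7.96, 49.4 and 29.5 CPM in the same CD8+CD127-PD-1+ libraries. These had 1224, 2405 and 2406 CPM of macrophage genes and 44.2, 258 and 293 CPM of neutrophil genes. The part of these cells in the Fn1 and Thbs1 values was not tested. Between lineages edgeR called 0 of the 14 ligand genes in the CD127-PD-1+ gate (4 at an unadjusted p under 0.05, 2 by DESeq2), and Lamc1, a laminin chain, was higher in CD4 cells in the CD127+PD-1- gate (log2 2.09, edgeR adjusted p = 0.0150).

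Integrin activation is the switch between states of low and high affinity. Of 20 genes listed under it, 1 rose and 3 fell in CD4+CD127-PD-1+ cells, and 1 rose and 4 fell in CD8+CD127-PD-1+ cells. Over all tested genes 4.87% fell in CD4 and 6.56% in CD8 cells, and 6.81% and 9.05% rose. Sipa1, which turns off the small GTPase Rap1, rose in both (log2 0.88 in CD4 and 0.60 in CD8 cells). Skap1 and Cyth1, which act in LFA-1 activation, fell in both. The falls were 0.58 and 0.54 on the log2 scale in CD4 cells and 0.58 and 0.67 in CD8 cells. Rasgrp2, the Rap1 activator CalDAG-GEFI, averaged 22.3 ± 7.89 CPM in CD4+CD127-PD-1+ libraries against 62.3 ± 12.0 CPM in CD4+CD127+PD-1- libraries (log2 -1.48, edgeR adjusted p = 0.00984). Stk4 was among those that fell in CD8+CD127-PD-1+ cells (log2 -0.46, edgeR adjusted p = 0.00439). DESeq2, unlike edgeR, also called Rasgrp2 in CD8 cells (log2 -0.72, edgeR adjusted p = 0.0788). The same held for Stk4 in CD4 cells (log2 -0.32, edgeR adjusted p = 0.0520). Other genes called by DESeq2 alone were higher in CD127-PD-1+ cells. These were Dok1 in CD4 cells (log2 1.17, edgeR adjusted p = 0.0762) and, in CD8 cells, Rap1a (log2 0.45, edgeR adjusted p = 0.0503) and Tln1 (log2 0.30, edgeR adjusted p = 0.0689). Rasgrp1 was higher in CD4 than in CD8 cells in both gates (log2 0.64 and 0.63), and Fyb in the CD127+PD-1- gate (log2 0.41). Of 19 tested adhesion complex genes, 2 rose and 1 fell in CD4+CD127-PD-1+ cells, and 1 rose and 2 fell in CD8+CD127-PD-1+ cells. These 3 calls in each lineage are near the shares of all tested genes, 11.7% in CD4 and 15.6% in CD8 cells. Actn1, the cytoskeletal linker alpha-actinin 1, was 8.41 and 8.44 CPM in CD4+CD127-PD-1+ against 72.9, 95.00 and 47.8 CPM in CD4+CD127+PD-1- libraries (log2 -3.09, edgeR adjusted p = 0.000172). In CD8 cells it was 29.6, 20.6 and 28.9 CPM in CD127-PD-1+ against 111, 125 and 89.3 CPM in CD127+PD-1- libraries (log2 -2.04, edgeR adjusted p = 0.000276). It was also lower in CD4 than in CD8 cells of the CD127-PD-1+ gate (log2 -1.65, edgeR adjusted p = 0.0103). Pxn (paxillin) rose in both lineages (log2 0.66 in CD4 and 0.47 in CD8 cells). Parvb rose in CD4 cells from a low level, at 2.90 against 0.243 CPM (log2 3.50). In CD8 cells it averaged 4.98 against 0.956 CPM (log2 2.39, edgeR adjusted p = 0.0503), which DESeq2 called. Rack1, listed as Gnb2l1, fell in CD8 cells (log2 -0.71) and was lower without a call in CD4 cells (log2 -0.54, edgeR adjusted p = 0.0920). The difference between the CD4 and CD8 changes was called for 0 of the 68 tested genes of these 4 lists by edgeR and 0 by DESeq2, and 10 had an unadjusted p under 0.05 by edgeR.

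The genes nearest in pattern were sought for the 3 integrin genes with the widest range, by the root mean square difference of centred group means of log2 CPM over 4 groups, among 5590 genes. Nearest to Itgb3 was Nebl (0.13), a nebulin family protein, with 31.3 CPM in CD4+CD127-PD-1+, 53.3 CPM in CD4+CD127+PD-1-, 6.85 CPM in CD8+CD127-PD-1+ and 12.2 CPM in CD8+CD127+PD-1- libraries. The next were Tmem64 and Furin, at 0.36 each. Nearest to Itgae were Mgst2 (0.13), Acp5 (0.18) and Hid1 (0.19). Nearest to Itgav were Ahr (0.06), which encodes the aryl hydrocarbon receptor, S100a4 (0.07) and Fmnl3 (0.08). Ahr averaged 60.7 CPM in CD4+CD127-PD-1+, 40.8 CPM in CD4+CD127+PD-1-, 41.7 CPM in CD8+CD127-PD-1+ and 18.1 CPM in CD8+CD127+PD-1- libraries. With 4 group means and 5590 candidates, such a list describes these libraries only.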

How the data were processed

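RNA of 11 labelled libraries was analysed, each from pooled kidney T cells of 3 mice, 2 ng of RNA and 75-base single reads per the labels. The authors deposited raw read counts per gene, made with STAR and featureCounts on GRCm38 per the submitters' processing notes. No version, annotation release or strand setting is given in the sources used here, so reads of overlapping genes cannot be told apart. In the table, 1 more column matched no label and stayed unused. The analysis used edgeR 4.0.16 in R 4.3.3: filterByExpr defaults (16365 genes kept), TMM scaling, 1 quasi-likelihood fit with a mean for each of 4 groups, Benjamini-Hochberg adjustment over all tested genes, threshold 0.05. CPM are TMM-scaled, log2 CPM use a prior count of 2, SE is the log2 fold change divided by the root of F, and 95% intervals use the fit's degrees of freedom. Levels between genes are CPM per kilobase of GENCODE M21 exons. The log2 ratio of Itgb1 to Itgb7 used a pseudocount of 0.5 CPM and an exact permutation test. The fit was tested on simulated data. Totals ran from 10572505 to 16057310 counts, and p values measure the spread between 2 or 3 pools per group, not between animals.

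All 10 integrin genes are named. From each list of other integrin subunits, ligands, activation and adhesion complex genes, up to 3 called genes per direction with the smallest p are named in each comparison of the sort gates and up to 2 in each between lineages. The genes and lists were chosen with earlier results of these data known. Of the 46078 identifiers, 45143 were found in GENCODE M21. Alternatives were other size factors, no filter, DESeq2 1.42.0, the compared groups only, replicate blocks, leaving out each library, a pseudocount of 2 CPM and, chosen after seeing the data, the longest coding transcript as length.

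The sums of other marker lists, as ranges over libraries in CPM, are given once here in turn for CD4 cells of the CD127-PD-1+ gate, CD4 cells of the CD127+PD-1- gate, CD8 cells of the first gate and CD8 cells of the second. Pan T genes summed to 1701 to 2230, 1749 to 2090, 1450 to 2102 and 1849 to 2313. Neutrophil genes summed to 25.7 to 39.0, 3.53 to 5.49, 44.2 to 293 and 2.98 to 24.8. Kidney tubule genes summed to 34.9 to 53.1, 49.6 to 135, 16.2 to 62.5 and 12.4 to 257. Mesangium and fibroblast genes summed to 0.844 to 2.49, 1.58 to 2.61, 1.90 to 2.31 and 1.89 to 5.87. B and plasma cell genes summed to 28.3 to 133, 59.9 to 108, 134 to 317 and 48.0 to 89.7. NK and innate lymphoid genes summed to 27.6 to 41.1, 40.1 to 55.2, 37.8 to 68.4 and 21.3 to 86.7.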

Additional observations from a re-analysis of the deposited data

How the results depend on the processing

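Of the 13 calls on integrin genes, none reversed under 150 alternative values, 130 kept the call and 20 lost it, and each loss stands beside its gene in the report. RLE size factors changed no call on an integrin gene and moved the median of all genes by less than 0.1 on the log2 scale. Calls on integrin genes between lineages in CD127+PD-1- cells numbered 6 without a filter. When 1 library was left out, the calls on integrin genes numbered 2 to 4 (CD4 cells) and 2 to 6 (CD8 cells) between the gates, 1 to 2 (CD127-PD-1+) and 2 to 3 (CD127+PD-1-) between lineages, and 0 for the difference of changes. Over all tested genes these ranges were 976 to 1377, 1475 to 2521, 126 to 384, 378 to 629 and 0 to 5. Calls over all genes between lineages in CD127-PD-1+ cells were 791 without a filter, 717 by DESeq2 and 214 with the compared groups only, and in CD127+PD-1- cells 1215 without a filter and 1190 by DESeq2. For the difference of changes they were 85 without a filter and 55 by DESeq2. The cause of these shifts was not tested. Where a group was left with 1 library, that library was assumed to vary like the other groups.

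Replicate numbers differ between titles and descriptions. Deviations of same-numbered libraries correlated at -0.21 to 0.32 over 15 pairs by title (7 over 0.1) and at 0.00 to 0.33 over 12 pairs by description (10 over 0.1). Of the libraries with a partner, 6 of 11 by title and 8 of 10 by description correlated best with their own number, a hint from the data only. With the title number as a replicate block the calls on integrin genes stayed at 4, 4, 2, 3 and 0, and 0 genes of all differed between the CD4 and CD8 changes. With the description number as a replicate block they were 6, 4, 2, 5 and 0, gaining Itgal and Itgb3 in CD4 cells and Itga6 and Itgb7 between lineages in CD127+PD-1- cells. The share of all tested genes called under this block is not given here, so these gains are not read as particular to integrin genes. That block leaves CD8+CD127-PD-1+ replicate 3 out in effect. Under it Itgb2 between lineages in CD127-PD-1+ cells (log2 -0.0291) and Itga1 in the difference of changes (-0.00978) reversed.

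Signs also reversed for uncalled values when 1 library was left out. The log2 ranges between lineages in CD127-PD-1+ cells were -0.70 to 0.11 (Itga1) and -0.0685 to 0.0754 (Itgb2), and in CD127+PD-1- cells -0.19 to 0.29 (Itgb1). For the difference of changes they were -0.64 to 0.72 (Itgae), -0.33 to 0.49 (Itga1), -0.0798 to 0.22 (Itgal), -0.0669 to 0.40 (Itgb1), -0.81 to 0.15 (Itgb3) and -0.64 to 0.0717 (Itgb7). With the longest coding transcript, Itgb1 was at 195 CPM per kb in CD4+CD127-PD-1+ and 168 CPM per kb in CD8+CD127-PD-1+ cells. The mean log2 ratio of Itgb1 to Itgb7 differed between gates by 1.23 to 1.88 (CD4) and 1.04 to 1.32 (CD8) with 1 library left out.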
